A study of Mesocricetus auratus with 6 samples.

Results

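A set of 10 genes that mark or build the suprachiasmatic nucleus (SCN), the hypothalamic pacemaker of mammals, were followed across cortex, SCN and liver of *duper* and wild-type Syrian hamsters. The genes were listed by name, as 8 homeodomain or zinc finger transcription factors of the developing and adult SCN (*Lhx1*, *Six3*, *Six6*, *Zfhx3*, *Rax*, *Nkx2-1*, *Dlx1* and *Dlx2*), *Syt10*, a synaptotagmin gene used to drive transgenes in SCN neurons, and *Otp*, a homeodomain gene of neighbouring hypothalamic nuclei. Of these 10 genes, 9 were found by symbol among the 31593 genes of the expression tables, and *Otp* was not analysed here. A test could be made for 8 of the 9, since *Rax* had too few counts.

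The groups were wild-type cortex, *duper* cortex, wild-type SCN, *duper* SCN, wild-type liver and *duper* liver, with 1 library each, all from tissue taken at circadian time 15 h (CT15). The wild-type animals were 4 hamsters of the Lakeview (LVG) ecotype, 2 male and 2 female. The *duper* animals were 4 females that carry a frameshift deletion in *Cry1*, a repressor of the circadian clock, on a background crossed to LVG and free of the *tau* mutation. Material of the 4 hamsters of a genotype was combined before 1 library was made for cortex and 1 for SCN, and each liver set merged the reads of 4 single-animal libraries. Sex and genotype therefore cannot be fully told apart, and no cortex or SCN value has an animal-level replicate.

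The SCN forms in the anterior hypothalamus under the control of homeodomain factors. *Six3* and *Six6* belong to the sine oculis family and pattern the eye field and the ventral forebrain, and *Lhx1*, a LIM homeodomain gene, acts late in SCN differentiation and keeps up the neuropeptides through which SCN neurons stay coupled. *Zfhx3* encodes a very large protein with many zinc fingers and homeodomains that stays on in adult SCN neurons, and mutations in it change the circadian period of mice. *Dlx1* and *Dlx2* are neighbouring distal-less genes of GABA neurons, the transmitter type of most SCN cells, while *Nkx2-1* and *Rax* pattern the ventral hypothalamus, where *Rax* later marks tanycytes.

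Totals of estimated counts ran from 6788947 in wild-type cortex to 85748562 in *duper* liver. The SCN libraries were unequal, with 29936218 counts in wild type and 7248840 in *duper*. As a check of the genotype, *Cry1* stood, in TPM (the share of a transcript among all of a library, corrected for its length), at 22.9 and 8.14 in SCN of wild-type and *duper* hamsters, at 33.3 and 8.56 in cortex, and at 16.8 and 5.44 in liver. As a check of the tissue, 5 of 8 genes on a list of SCN neuron markers were analysed. *Nms*, a neuropeptide gene, was listed at 0 in both cortex libraries and at 33.5 TPM (wild type) and 13.4 TPM (*duper*) in SCN. *Vipr2*, the receptor for VIP, was at 0.467 and 0.186 TPM in the cortex and at 12.5 and 6.32 TPM in SCN. *Rgs16*, a regulator of G protein signalling, was at 11.1 and 9.93 TPM in the cortex and at 24.8 and 23.2 TPM in SCN. *Prokr2*, the receptor of the *Prok2* product, went against the label in *duper*, at 5.46 and 3.07 TPM in the cortex and 8.42 and 1.37 TPM in SCN. *Prok2*, which encodes a secreted SCN output factor, was low throughout and stayed between 0.237 and 0.563 TPM in all 4 brain libraries. The 6 markers of cortical excitatory neurons summed to 3837 and 3252 TPM in cortex and to 334 and 339 TPM in SCN, where *Emx1*, a defining gene of dorsal cortex, was at 0.118 and 0 TPM.

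Levels per transcript length placed the 9 genes in 5 tiers in the SCN. *Dlx1* was highest, at 50.1 TPM (wild-type library) and 47.3 TPM (*duper* library). *Six3* came next, at 34.2 and 25.1 TPM, and neither gene overlapped its neighbour in the order across the 2 libraries. *Syt10* (19.2 and 15.8 TPM) and *Zfhx3* (16.9 and 17.6 TPM) exchanged places between the genotypes. The next 4 genes formed a chain of overlapping ranges, with *Dlx2* at 8.57 and 6.42 TPM, *Six6* at 8.79 and 6.005 TPM, *Lhx1* at 7.78 and 4.94 TPM, and *Nkx2-1* at 3.87 and 5.76 TPM. *Rax* was far below them, at 0.298 and 0.209 TPM. In the wild-type SCN the gene at the top of this order, *Dlx1*, stood above 87.7% of all genes and *Lhx1* above 62.0%.

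**Figure D1:**
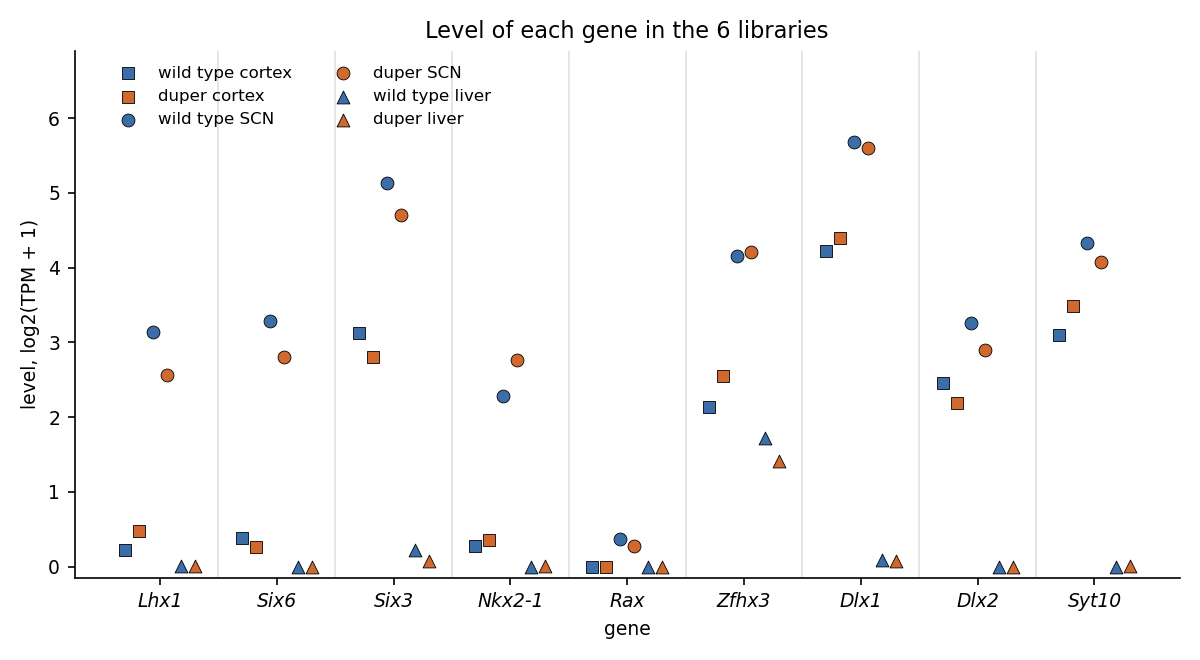
Level of each of the 9 genes as log2(TPM + 1) on the vertical axis in the 6 libraries, with wild type in blue, *duper* in orange, squares for cortex, circles for SCN and triangles for liver. Every point is 1 library, and the SCN circles run from *Dlx1* at 50.1 and 47.3 TPM down to *Rax* at 0.298 and 0.209 TPM.

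The first comparison asked how far each gene was enriched in SCN over cortex. All 8 tested genes were higher in both SCN libraries than in either cortex library, but the share of all genes that were so was not counted. For *Lhx1*, *Six6* and *Nkx2-1*, which entered the test through the SCN libraries alone, this order was fixed beforehand. The test was a fit across all genes and all 6 libraries with terms for tissue and genotype, in which calls needed an adjusted p below 0.05 together with a log2 fold change beyond 0.58 in either direction. In that fit the *duper* and wild-type libraries stand in for replicates, after a shared genotype difference is removed. Its error draws on all 6 libraries, liver included, with 2 residual degrees of freedom. It is also moderated toward the trend over all genes, with a median of 5.02 prior degrees of freedom. Much of the error is therefore borrowed from other genes. Over all 19780 genes tested, 3.77% were called higher in SCN and 6.80% were called lower. In bulk tissue, fewer cells of a type and less RNA per cell cannot be told apart.

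*Lhx1*, *Six6* and *Nkx2-1* were close to absent from cortex. *Lhx1* had 2 counts in wild-type cortex and 4 in *duper* cortex (0.171 and 0.385 TPM), against 223 and 55 counts in the SCN libraries. Its fitted log2 fold change was 4.27 (SE 0.61, edgeR adjusted p = 0.00588). *Six6*, a gene without which mice fail to form an SCN, had 1 count in each cortex library (0.310 and 0.204 TPM) and 142 and 23 counts in SCN, and its fitted log2 fold change was 4.79 (SE 0.91, edgeR adjusted p = 0.0255). *Nkx2-1* was at 0.213 and 0.281 TPM in cortex, where it had about 1 and 2 counts, and at 109 and 36.1 estimated counts in SCN (log2 fold change 4.48, SE 0.88, edgeR adjusted p = 0.0202). With so few cortex counts the size of these differences was poorly bounded. The exact interval of the ratio of counts, scaled to library size, ran from 6.12-fold to 186-fold for *Lhx1* in wild type and from 6.52-fold to 67.2-fold in *duper*. For *Six6* the lower bound was 5.03-fold in wild type and 4.80-fold in *duper*, and for *Nkx2-1* it was 3.84-fold and 5.96-fold. These intervals cover counting error only.

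*Rax* was detected in SCN alone, with 6 counts in the wild-type and 1 in the *duper* library and 0 in the 4 libraries of cortex and liver. In CPM, counts scaled to library size, that was 0.142 and 0.0980, under the 0.353 and 0.229 that 3 counts would give in the cortex libraries, so an enrichment of *Rax* was not detectable at this depth and no fold is given.

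*Six3* and *Zfhx3* were present in cortex and about 4 times higher in SCN. *Six3* was at 7.72 and 5.96 TPM in wild-type and *duper* cortex, against 34.2 and 25.1 TPM in SCN, and it rose 4.34-fold (log2 fold change 2.12, SE 0.29, edgeR adjusted p = 0.00490). *Zfhx3* was at 3.38 and 4.86 TPM in cortex and 16.9 and 17.6 TPM in SCN, a rise of 4.20-fold (log2 fold change 2.07, SE 0.20, edgeR adjusted p = 0.00147). *Zfhx3* rested on the largest number of counts of the 9 genes, 4531 and 1117 in SCN, and was also the one with the smallest adjusted p. It was the only one of the 9 with more than 1 TPM in liver, at 2.29 and 1.65 TPM in the wild-type and *duper* liver. In liver the other 8 genes were between 0 and 0.165 TPM.

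The distal-less pair and *Syt10* differed less. *Dlx1* was at 17.7 and 20.1 TPM in cortex and 50.1 and 47.3 TPM in SCN, and rose 2.66-fold (log2 fold change 1.41, SE 0.19, edgeR adjusted p = 0.00436). *Dlx2* was at 4.51 and 3.54 TPM in cortex and 8.57 and 6.42 TPM in SCN. With a log2 fold change of 0.90 and an SE of 0.41 it did not pass (edgeR adjusted p = 0.234). It passed when the fit held the 4 brain libraries alone (edgeR adjusted p = 0.0408). The ratio of *Dlx1* to *Dlx2* in TPM was 3.92 and 5.68 in wild-type and *duper* cortex and 5.84 and 7.36 in the corresponding SCN libraries. Markers of GABA neurons (*Gad1*, *Gad2* and *Slc32a1*) rose in sum, from 375 and 353 TPM in cortex to 584 and 629 TPM in SCN. *Gad2* and *Slc32a1* carried the rise (log2 fold change 1.04 and 1.33), while *Gad1* changed little and did not pass (0.21, SE 0.24, edgeR adjusted p = 0.642). The part of these markers in the *Dlx1* result was not tested. *Syt10* was at 7.60 and 10.2 TPM in cortex and 19.2 and 15.8 TPM in SCN, a rise of 1.99-fold that passed narrowly (log2 fold change 0.99, SE 0.23, edgeR adjusted p = 0.0372) and did not pass with limma on log2(TPM + 1) (adjusted p = 0.0955).

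In all, 7 of the 8 tested genes were called higher in SCN and none lower, and their median log2 fold change was 2.09 against 0.03 for all genes tested. *Lhx1*, *Six6* and *Nkx2-1* entered the fit through the 2 SCN libraries alone, so they had to be higher there to be tested at all, and the count says nothing about the set as a whole. Among the 5 genes with enough counts in at least 3 libraries, 4 were called. When a brain library was left out, the other one of its tissue stood alone and was assumed to vary like the rest. All 8 log2 fold changes stayed positive, and *Zfhx3* alone was called without the wild-type or without the *duper* cortex library, *Zfhx3* and *Six3* without the wild-type SCN library, and 5 genes without the *duper* SCN library. With library size in place of the TMM scaling, the median of all genes moved to 0.19 and 1426 genes were called higher and 1069 lower, in place of 745 and 1346, while the same 7 genes passed.

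**Figure D2:**
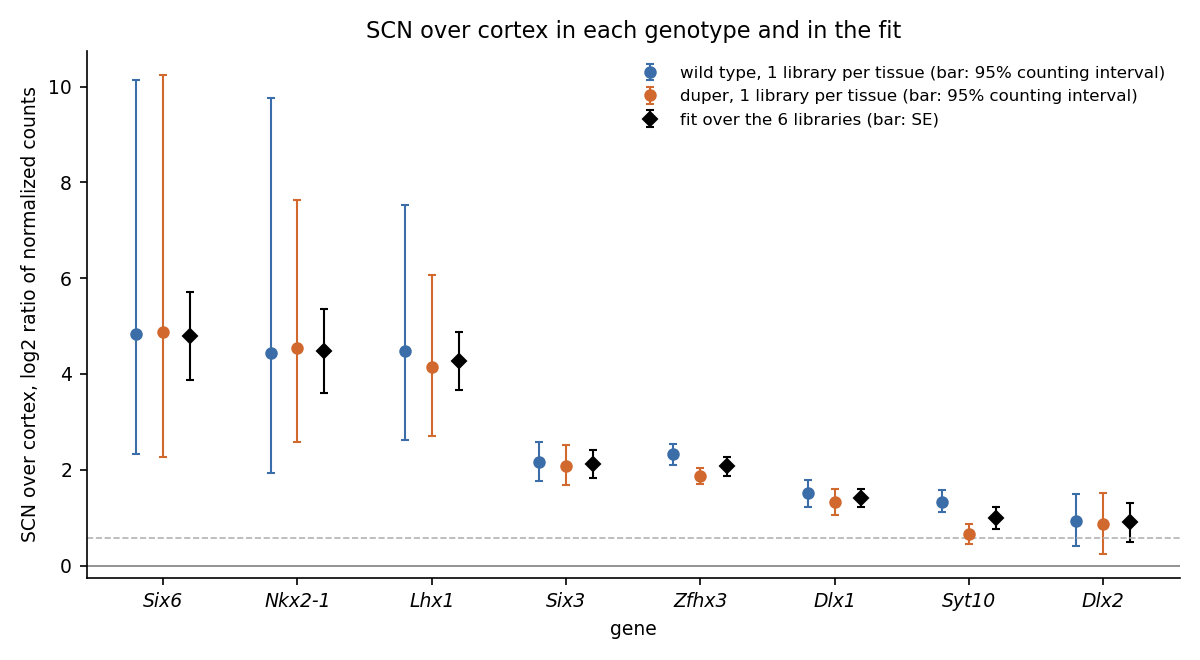
SCN over cortex for the 8 tested genes as a log2 ratio of library-scaled counts, in wild type (blue) and *duper* (orange) with 95% counting intervals, and as fitted over the 6 libraries (black diamonds, bars of 1 SE), with the fold threshold of 0.58 dashed. *Six6*, *Nkx2-1* and *Lhx1* lie above 4 with wide intervals, and *Syt10* is the lowest called gene at 0.99.

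Set side by side, both genotypes showed each gene higher in SCN. The log2 ratio of TPM + 1 in wild type and *duper* was 2.91 and 2.10 for *Lhx1*, 2.90 and 2.54 for *Six6*, 2.01 and 2.40 for *Nkx2-1*, and 2.01 and 1.91 for *Six3*. For the others it was 2.03 and 1.66 for *Zfhx3*, 1.45 and 1.19 for *Dlx1*, 1.23 and 0.59 for *Syt10*, and 0.80 and 0.71 for *Dlx2*. All 8 were above 0.58 in both genotypes, a level that 17.4% of genes averaging 1 TPM or more exceeded in wild type and 15.4% in *duper*. *Lhx1*, *Six6* and *Nkx2-1* reached such an average through SCN alone, so they had to exceed that level. With TPM rescaled by TMM factors the count was 6, since *Syt10* came to 0.44 and *Dlx2* to 0.55 in *duper*. On the count scale the intervals of the genotypes did not overlap for *Syt10*, whose log2 ratio was 1.33 (1.11 to 1.57) in wild type and 0.65 (0.44 to 0.86) in *duper*, or for *Zfhx3*, at 2.32 (2.11 to 2.54) and 1.86 (1.70 to 2.03). With 1 library per tissue and genotype, this difference between the genotypes was not tested against animal-to-animal spread. *Zfhx3* and *Syt10* had the most SCN counts of the members and so the narrowest intervals. The share of all genes whose intervals parted in this way was not counted.

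The second comparison asked whether these genes differed between *duper* and wild type within the SCN. None of the 8 genes reached the fold threshold of 0.58 on the log2(TPM + 1) scale, which 14.4% of the 18305 genes averaging 1 TPM or more did. The log2 ratios ran from -0.56 to 0.47 with a median of -0.31, against 0.02 for all these genes, and 6 of the 8 were negative on this scale. The lowest, *Lhx1*, was at 0.03 on scaled counts, so the range and the number of negative values depend on the scale. There is 1 SCN library per genotype, so no test was made, and the intervals that follow cover counting error only and not the spread between animals.

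*Six3* and *Syt10* were lower in the *duper* library by more than counting error, but the share of all genes that were so was not counted. On log2(CPM + 1) they were at -0.47 and -0.29. Both lay between the 5th and 95th percentiles of genes averaging 1 TPM or more, which were -0.53 and 0.47. *Six3* had 1227 counts in wild type and 211 in the shallower *duper* library, and the log2 ratio of scaled counts was -0.49 (-0.70 to -0.27). *Syt10* had 2136 and 418 counts, with a log2 ratio of -0.30 (-0.45 to -0.15). *Dlx2* was at the edge, at -0.44 (-0.88 to -0.02). For *Zfhx3* and *Dlx1*, which had the most and the third most counts, the interval lay close around 0, at 0.03 (-0.06 to 0.13) and -0.11 (-0.28 to 0.06). The intervals of *Six6* at -0.57 (-1.28 to 0.07) and *Nkx2-1* at 0.46 (-0.13 to 1.01) held 0 and were wide, from 23 and 36.1 counts in the *duper* library.

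*Lhx1* gave different answers on the 2 scales. It fell from 7.78 to 4.94 TPM, a log2 ratio of TPM + 1 of -0.56 that was the lowest of the 8. Yet the scaled counts were equal within counting error, at 5.26 CPM in wild type and 5.39 CPM in *duper* (log2 ratio 0.03, -0.42 to 0.47). The reads of *Lhx1* are shared between a transcript model of 1302 bases and one of 3911 bases. In the wild-type SCN the short model was assigned 95.7 of 223 counts (42.9%), and in the *duper* SCN 5.52 of 55 counts (10.0%). The short model went from 5.60 to 1.36 TPM while the long model went from 2.18 to 3.57 TPM. TPM divides by transcript length, so the same count weighs more when it is placed on the short model. *Six3* also has 2 models, of similar length, and its 2653-base model took 23.3% of counts in the wild-type and 7.52% in the *duper* library. For *Nkx2-1* the 1708-base model took 55.0% and 69.4%. Reads that match both models of a gene are divided by estimation, and no test of these splits was made.

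**Figure D3:**
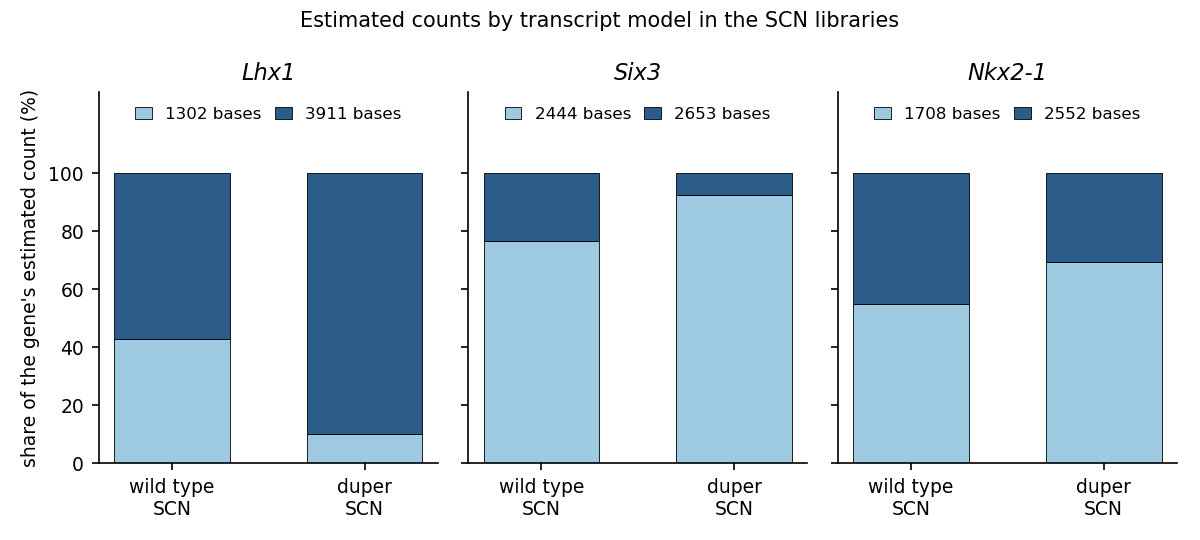
Share of the estimated count (vertical axis, percent) that each transcript model of *Lhx1*, *Six3* and *Nkx2-1* took in the 2 SCN libraries, with the shorter model in light blue and the longer in dark blue. The 1302-base model of *Lhx1* holds 42.9% in wild type and 10.0% in *duper*.

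In the cortex the pattern was not the same. *Zfhx3* and *Syt10* were higher in the *duper* than in the wild-type cortex library, with log2 ratios of scaled counts of 0.49 (0.23 to 0.75) and 0.38 (0.11 to 0.66). On log2(CPM + 1) they were at 0.47 and 0.37. Both lay between the 5th and 95th percentiles of genes averaging 1 TPM or more, which were -0.55 and 0.56. *Six3* at -0.41 (-0.95 to 0.14), *Dlx2* at -0.38 (-1.09 to 0.35) and *Dlx1* at 0.08 (-0.28 to 0.43) had intervals that held 0. *Lhx1*, *Six6* and *Nkx2-1* had at most 4 counts in a cortex library and could not be compared. *Zfhx3*, the member with by far the most liver counts, was lower in the *duper* liver, at -0.29 (-0.39 to -0.18). *Six3*, with 15.8 counts in the wild-type and 5.77 in the *duper* liver, was at -1.58 (-3.19 to -0.12).

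**Figure D4:**
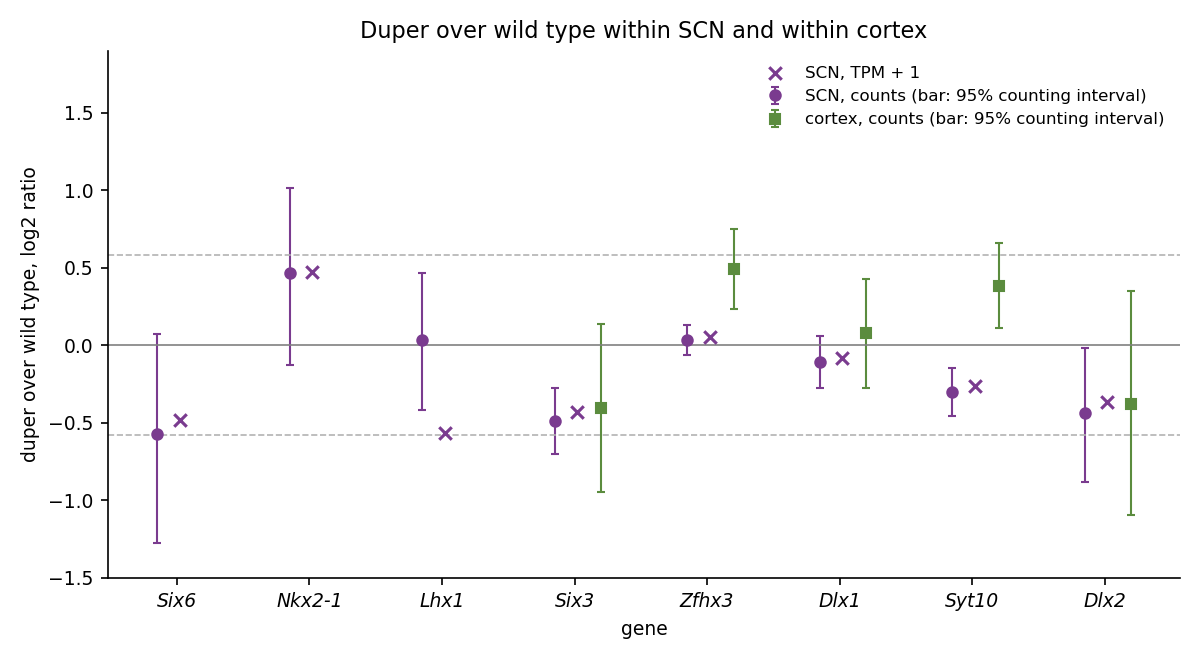
*Duper* over wild type as a log2 ratio, for the 8 genes in SCN (purple circles, scaled counts; purple crosses, TPM + 1) and for the 5 genes with at least 10 counts in both cortex libraries (green squares), with 95% counting intervals and the fold threshold of 0.58 dashed on either side of 0. The circle and cross of *Lhx1* part, at 0.03 and -0.56, and the SCN and cortex points of *Syt10* lie on opposite sides of 0.

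Markers of other cells also differed between the SCN libraries. Among SCN neuron markers, *Nms* had a log2 ratio of scaled counts of -1.33 (-2.50 to -0.34), *Vipr2* -1.002 (-1.36 to -0.68) and *Prokr2* -2.65 (-3.88 to -1.64), while *Rgs16* was at -0.12 (-0.36 to 0.11). The sum over the 5 markers was 79.8 TPM in the wild-type and 44.5 TPM in the *duper* library. *Pmch*, the melanin-concentrating hormone gene of the lateral hypothalamus, was at 58.2 and 11.4 TPM, and *Pomc*, a gene of the arcuate nucleus and the pituitary, at 6.17 and 17.4 TPM. The 6 markers analysed for neurons of other hypothalamic nuclei, these included, summed to 273 and 312 TPM, with *Sst* at 197 and 273 TPM. *Cga*, the glycoprotein hormone subunit of the pituitary, was at 0.168 and 47.9 TPM, and the 4 pituitary markers analysed summed to 0.168 and 50.7 TPM, with *Pitx1* at 0 in both. The 3 oligodendrocyte markers analysed summed to 3363 and 2912 TPM and the GABA neuron markers to 584 and 629 TPM. The 6 cortical excitatory markers were level in sum (334 and 339 TPM), although *Slc17a7* was at 8.61 and 3.65 TPM. The 6 striatal markers summed to 95.6 and 68.9 TPM, with *Ppp1r1b* at 42.1 and 19.7 TPM and *Drd1* at 10.4 and 5.17 TPM, and *Ttr*, a gene of liver and choroid plexus, was at 165 and 24.1 TPM. The part of these differences in the values of *Six3*, *Syt10* and *Dlx2* was not tested. In the cortex, the striatal markers summed to 378 and 141 TPM in the wild-type and *duper* libraries, and their part in the *Zfhx3* and *Syt10* values there was likewise not tested.

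Fitted over the 3 tissues together, no member passed the test of *duper* against wild type. This fit called 15 of the 19780 genes (0.0758%), 4 higher and 11 lower, *Cry1* among them with a log2 fold change of -1.69 (SE 0.18, edgeR adjusted p = 0.0437). DESeq2 called 41, 26 higher and 15 lower. Of the 8 members tested, edgeR called 0, with 1 at an unadjusted p under 0.05, and DESeq2 and limma also called 0. That 1 gene was *Six3*, with a log2 fold change of -0.61 (SE 0.25) and a BH-adjusted p of 1 in edgeR. It was lower in *duper* in all 3 tissues, including liver, where it had 15.8 and 5.77 counts. *Nkx2-1* was at 0.58 (SE 0.72), *Six6* at -0.56 (SE 0.76), *Dlx2* at -0.41 (SE 0.40) and *Lhx1* at 0.18 (SE 0.51), and *Zfhx3*, *Syt10* and *Dlx1* lay between -0.03 and 0.06. This fit and the values within SCN share the SCN libraries.

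Several lists of related genes place these values among other factors. Of 13 tested transcription factors of neighbouring hypothalamic nuclei, 6 were called higher in SCN and none lower. Over all genes tested, 3.77% were called higher and 6.80% lower. Of these 13 genes, 4 entered the fit through 2 libraries alone and so had to differ between tissues to be tested, and among the 9 with enough counts in at least 3 libraries 4 were called. *Uncx*, a homeodomain gene of hypothalamic neuroendocrine neurons, had a log2 fold change of 6.08 (SE 1.05, edgeR adjusted p = 0.0184), *Hmx3* 5.08 (SE 0.66, edgeR adjusted p = 0.00682) and *Lhx5*, the closest relative of *Lhx1*, 4.81 (SE 0.53, edgeR adjusted p = 0.00378). *Hmx2* was listed at 0 in both cortex libraries and at 3.34 and 2.60 TPM in SCN, and did not pass (edgeR adjusted p = 0.0710). The level of *Lhx5* in SCN, 14.0 and 16.5 TPM, exceeded that of *Lhx1*.

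Of 16 transcription factors of the cortex, 12 were called lower in SCN and none higher, where 6.80% of all genes tested were called lower. All 16 log2 fold changes were negative. *Emx1* entered through the cortex libraries alone, and 11 of the 15 others were called. *Emx1* had a log2 fold change of -7.75 (SE 0.84), *Neurod6* -5.98 (SE 0.51) and *Neurod2* -5.75 (SE 0.37), and each of these 3 passed with an edgeR adjusted p of at most 0.00364. Of 27 other factors of the SCN and anterior hypothalamus, 5 were called higher and 4 lower, against 3.77% and 6.80% of all genes tested. The 9 called were all among the 25 with enough counts in at least 3 libraries. *Isl1*, a LIM homeodomain gene, rose by 2.95 on the log2 scale (SE 0.44, edgeR adjusted p = 0.0111), *Lhx8* rose by 2.44 (SE 0.53, edgeR adjusted p = 0.0380), and *Bcl11a*, also a cortical factor, fell by 2.71 (SE 0.19, edgeR adjusted p = 0.000511). *Onecut3* was listed at 0 in cortex and at 1.11 and 1.70 TPM in SCN, and did not pass.

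Of 14 tested paralogs of the 9 genes, 3 were called higher in SCN and none lower, where 3.77% of all genes tested were called higher. Besides *Lhx5*, these were *Zfhx4* at 2.41 (SE 0.17, edgeR adjusted p = 0.000541), which at 18.0 and 18.7 TPM in SCN was close to *Zfhx3* in level, and *Syt9* at 2.34 (SE 0.19, edgeR adjusted p = 0.000825), which reached 34.0 and 33.7 TPM in SCN, above *Syt10*. *Six2* was at 2.65 (SE 1.03) and did not pass (edgeR adjusted p = 0.159). Between *duper* and wild type over the 3 tissues, edgeR called 0 genes in each of the 4 lists, with 2 at an unadjusted p under 0.05 in all, and DESeq2 and limma called 0. Within SCN, among listed genes averaging 1 TPM or more over the 2 SCN libraries, *Lhx8* was the one above the fold, at 5.16 and 12.9 TPM in the wild-type and *duper* libraries, and *Zic2*, *Neurod6* and *Six2* were the ones below it.

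**Figure D5:**
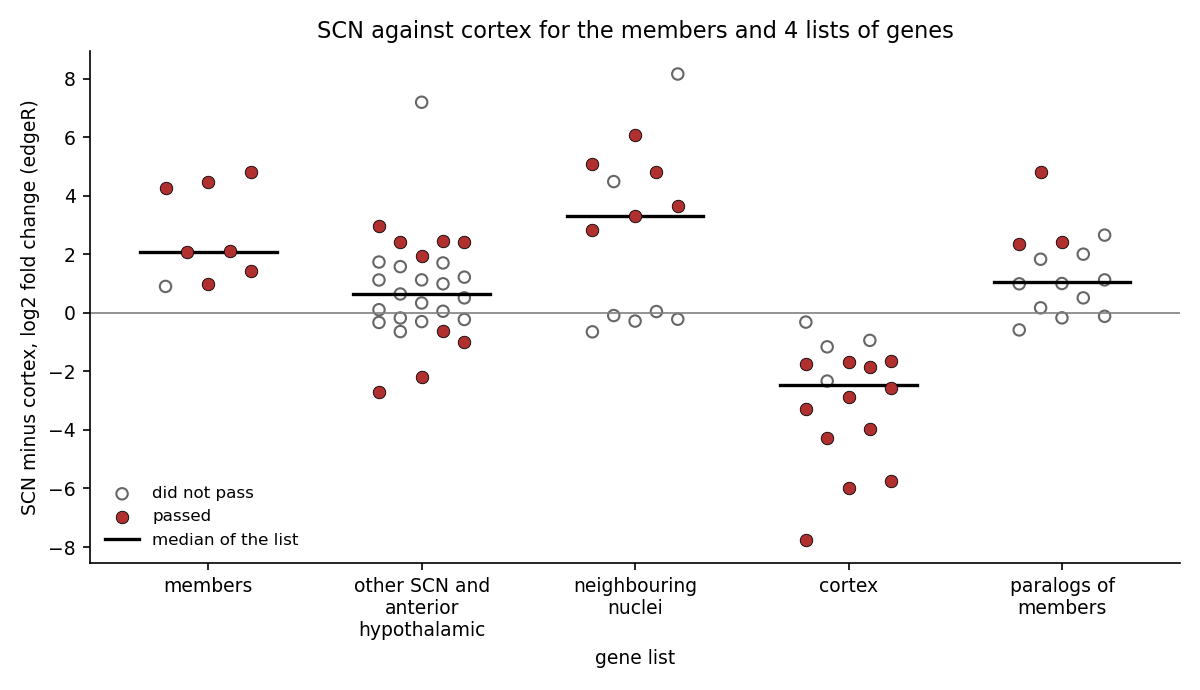
Log2 fold change of SCN over cortex (edgeR, vertical axis) for the 8 tested members and 4 lists, each point a gene, filled where it passed the test, with the median of each list as a bar. Medians are 2.09 for the members, 0.64, 3.32, -2.46 and 1.06 for the lists from left to right; they are a description only, since 3 members and, in the same order, 2, 4, 1 and 1 list genes entered the fit through 2 libraries alone. The 2 open points at the top are *Hmx2* and *Onecut3*, whose fitted values rest on 0 counts in cortex.

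The genes nearest to *Lhx1*, *Six6* and *Syt10* over the 6 libraries were found by Euclidean distance on log2(TPM + 1), as a description. *Lhx1* and *Six6* were each other's nearest gene of all 31593, at a distance of 0.39, and their ratio in TPM was 0.885 in the wild-type and 0.822 in the *duper* SCN. On the count scale *Lhx1* was at 5.26 and 5.39 CPM and *Six6* at 3.35 and 2.25 CPM in these libraries, so the likeness in TPM includes the fall of *Lhx1* that its scaled counts did not show. *Lhx1* was followed by *Prrx2* (7.86 and 4.07 TPM in SCN) and LOC121135519, and *Six6* by LOC110341725 and *Hmx3* (7.37 and 8.22 TPM). For *Syt10* the nearest were *Rnf182* at 0.21, with 8.43 and 11.4 TPM in cortex and 18.9 and 16.6 TPM in SCN, then *Dnah2* and *Fam131c*.

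Among the members, 3 overlap a long noncoding RNA in the annotation. The kit kept strand, but whether reads were assigned by strand is not given in the sources used here, so their reads may not be fully separate. LOC121136993 at *Six3* was at 3.34 and 2.19 TPM in cortex and 18.1 and 16.2 TPM in SCN, following *Six3* in direction. LOC121140379 at *Dlx1* changed little, from 3.64 and 5.84 TPM in cortex to 4.71 and 4.68 TPM in SCN. LOC110342822 at *Nkx2-1* had 11 counts in the wild-type and 8 in the *duper* SCN.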

How the data were processed

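RNA of cortex, SCN and liver was sequenced from stranded mRNA libraries. The authors quantified transcripts with Kallisto (version not given in the sources used here) and used tximport for gene sums. Deposited values were raw estimated counts and TPM of each gene, and for each library the length, estimated count and TPM of each transcript. The methods name MesAur2.0. The RefSeq table of BCM_Maur_2.0, which matched 31590 of 31593 genes by symbol, was used for names and overlaps only.

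Estimated counts were rounded and fitted in edgeR 4.0.16 (R 4.3.3; TMM, filterByExpr by tissue, quasi-likelihood F test, Benjamini-Hochberg over 19780 genes) with terms for tissue and genotype. A filter by genotype, an alternative, removes genes found in SCN alone. SE is the absolute log2 fold change over the square root of F. DESeq2 1.42.0 and limma 3.58.1 were alternatives. Within a tissue, exact (Clopper-Pearson) 95% intervals of the ratio of counts over TMM-scaled library sizes (scipy 1.17.1) treat estimated counts as counts. Steps were tested on simulated data.

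Members and lists were chosen with earlier results of these data known. All members are named, each list by its 3 or 4 largest absolute log2 fold changes of SCN over cortex at a mean of at least 1 TPM in either tissue, and 3 members by their 3 nearest patterns. Markers, and list genes named within SCN, were chosen after their values were seen. The value of 1 list gene is not reported here. P-values rest on the spread between libraries and on error shared over all genes, not on the spread between animals.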

Additional observations from a re-analysis of the deposited data

Results flagged for a closer look

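For *Syt10* the *duper* library was higher than the wild-type one in cortex (log2 ratio of scaled counts 0.38, 0.11 to 0.66) and lower in SCN (-0.30, -0.45 to -0.15), a gap of 0.68 between opposite directions. For *Zfhx3* the *duper* library was higher in cortex (0.49, 0.23 to 0.75) and lower in liver (-0.29, -0.39 to -0.18), a gap of 0.77. With 1 library per tissue and genotype neither difference was tested, and the intervals cover counting error only. The share of all genes with such opposite directions was not counted.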

How the results depend on the processing

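For SCN over cortex, each member that an alternative run fitted kept a positive log2 fold change. *Lhx1*, *Six6* and *Nkx2-1* had to be higher in SCN to enter the main fit, so their sign shows no stability. The count of genes passing was 7 with DESeq2, with library size for TMM, with no filter beyond 1 count and with no fold threshold. A filter by genotype, which removes *Lhx1*, *Six6* and *Nkx2-1*, left 4; the count without 1 brain library was 1 to 5. Over all genes the count of 2091 became 3542 with the 4 brain libraries alone and 356 to 1408 without 1 brain library. For *duper* over wild type, no member was called under any alternative run, while the count of 15 over all genes became 41 with DESeq2, 48 with no filter beyond 1 count, 1 with the filter by genotype, 2 with limma, 2 without the cortex libraries and 34 without the SCN libraries. Directions turned for members that were not called: *Lhx1* to -0.11 and *Dlx1* to 0.028 with limma, *Dlx1* to 0.059 without the SCN libraries, and *Zfhx3* to -0.18 and *Syt10* to -0.30 without the cortex libraries. The cause was not tested. Within SCN, 1 member, *Lhx1*, passed the fold with a pseudocount of 0.1 (-0.65), and it came to 0.03 with TMM-scaled CPM + 1. Of 72 alternative values of ratios within a tissue or genotype, 67 moved by less than counting error and 5 by more. For *Lhx1*, *Six6* and *Nkx2-1* over cortex, the few cortex counts made that error several log2 units wide. *Lhx1* over cortex in wild type, for instance, went from 2.91 to 4.86 with a pseudocount of 0.1 and still fell within it. The 67 is therefore no measure of stability for these genes. Each tissue difference was taken within a genotype, whose tissues came from the same hamsters, since genotype is a term of the fit. Depth limits *Rax*, *Six6* and *Nkx2-1* most, with at most 36.1 counts in the *duper* SCN.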
